A study of Mus musculus with 6 samples.

Results

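The 8 genes described here encode enzymes of glucose and glycogen metabolism in the liver: G6pc, Pck1, Fbp1 and Pcx of gluconeogenesis, Pklr and Pfkl of glycolysis, and Gys2 and Pygl of glycogen synthesis and breakdown. Their members are all probe sets (groups of short array probes that report 1 transcript) that the platform annotation assigns to exactly 1 of these symbols. The rule found 18 probe sets among the 45101 of the larger array design. Of these, 16 were also among the 22690 probe sets shared by both designs, and 4 of the 16 were control probe sets for pyruvate carboxylase that the manufacturer placed on the array to follow RNA quality. The genes are 8 of the 12393 that at least 1 shared probe set names.

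The livers came from C57BL/6J mice, inbred animals prone to obesity when fed fat, which ate a high-fat diet (written HFC in the design) or a control diet. Each diet was measured at weeks 2, 4 and 10, on 1 Affymetrix array per diet and week, or 6 arrays in all. The arrays of week 4 are of the larger design and those of weeks 2 and 10 of the smaller. Mice were assigned to the diets at random, and no genotype or treatment other than diet is named. Whether the RNA on an array is of 1 mouse or of several is not stated in the labels, and neither are the sex and age of the mice, nor the hour or the feeding state at collection.

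The liver releases glucose into blood during fasting and stores it as glycogen after a meal. In gluconeogenesis, pyruvate carboxylase (Pcx) and phosphoenolpyruvate carboxykinase (Pck1) together bypass the pyruvate kinase step of glycolysis, fructose bisphosphatase (Fbp1) bypasses the phosphofructokinase step, and the catalytic subunit of glucose phosphatase (G6pc) frees glucose at the end. Transcription of G6pc and Pck1 is known to be raised by glucagon and glucocorticoids and lowered by insulin, while that of Pklr, the liver and red cell pyruvate kinase, is known to be raised by carbohydrate feeding through the factor encoded by Mlxipl.

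In the mouse assembly GRCm38.p6, as annotated by RefSeq, G6pc lies at chr11:101367716-101377903, Pck1 at chr2:173153073-173159274, Fbp1 at chr13:62864753-62888298 and Pcx at chr19:4510472-4621752. Pklr lies at chr3:89136122-89146815, Pfkl at chr10:77986947-78009807, Gys2 at chr6:142422612-142473130 and Pygl at chr12:70190815-70227683. The files themselves give no coordinates. Promoter windows of 300 bases, 250 before and 50 after a transcript start, were matched for 7 of the 8 genes, all but Gys2, with 9 windows in all. Those of G6pc, Pck1 and Pklr are printed because these 3 genes had the widest differences between diets in single weeks. Each is given on the strand of the gene, 5′ to 3′, from RefSeq on GRCm38.p6. Capitals mark matches, on either strand, to 9 short motifs named in the next paragraph.
G6pc promoter, chr11:101367466-101367765, plus strand: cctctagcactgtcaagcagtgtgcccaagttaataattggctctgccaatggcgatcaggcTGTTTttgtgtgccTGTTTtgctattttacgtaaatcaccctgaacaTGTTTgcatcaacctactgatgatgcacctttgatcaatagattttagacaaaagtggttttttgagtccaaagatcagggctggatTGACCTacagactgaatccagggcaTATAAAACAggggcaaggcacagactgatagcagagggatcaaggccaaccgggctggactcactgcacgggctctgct
Pck1 promoter, chr2:173152823-173153122, plus strand: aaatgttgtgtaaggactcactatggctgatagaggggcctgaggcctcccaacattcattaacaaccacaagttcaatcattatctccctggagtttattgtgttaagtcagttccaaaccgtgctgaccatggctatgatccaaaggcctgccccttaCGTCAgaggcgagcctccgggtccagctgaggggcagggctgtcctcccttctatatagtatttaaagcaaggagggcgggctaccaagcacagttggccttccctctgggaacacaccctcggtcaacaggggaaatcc
Pklr promoter of the downstream start, chr3:89136373-89136672, plus strand: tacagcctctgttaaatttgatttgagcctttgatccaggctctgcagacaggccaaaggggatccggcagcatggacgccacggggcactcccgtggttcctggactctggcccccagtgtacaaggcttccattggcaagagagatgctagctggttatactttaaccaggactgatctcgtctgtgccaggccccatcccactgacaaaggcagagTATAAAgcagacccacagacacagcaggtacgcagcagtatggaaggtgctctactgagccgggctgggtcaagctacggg

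The motifs searched were the forkhead or insulin response core TGTTT and its longer form TGTTTAC, the cAMP response element TGACGTCA and its core TGACG, the E-box CACGTG, the nuclear receptor core AGGTCA, the D-box TTATGTAA, the glucocorticoid receptor core TGTTCT and the TATA motif TATAAA. The shorter forms lie inside the longer ones, so TGTTT matches wherever TGTTTAC does, and TGACG wherever TGACGTCA does. Counted by the first base of each match from the transcript start, the G6pc window held TGTTT at -188, -174 and -141 on the gene's strand. A further match at -25 on the other strand overlaps the TATAAA at -29. It also held AGGTCA on the other strand at -54. The Pck1 window held the core TGACG on the other strand at -90, and the Pklr window held TATAAA at -31. TGTTT occurs in 50.5% of the 32851 promoter windows of the table, AGGTCA in 16.3%, TGACG in 20.8% and TATAAA in 13.6%. Of the 9 windows of these enzyme genes, 1 held TGTTT, 4 held AGGTCA, 2 held TGACG, 2 held TATAAA and 1, of Pcx, held CACGTG, which occurs in 7.15% of all windows. TGTTTAC, TGACGTCA, TTATGTAA and TGTTCT, which occur in 3.65%, 1.79%, 0.938% and 19.0% of all windows, were in none of the 9. A match is a run of letters and was not tested as a binding site.

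Levels are given as log2 of the deposited signal intensity. Every array was centred on the median of the 9922 shared probe sets that, after a first centring, exceeded the pooled 40th percentile on all 6 arrays. Values under a floor, the pooled 40th percentile (7.28 on the log2 scale, a signal of 155.3), were set to it. Scaling was separate for the 2 designs, so the diets were set against each other week by week and levels of week 4 were not set against those of the other weeks, except where a sentence says so. The difference over the 3 weeks was tested with limma, with week as a block, on the 14533 shared probe sets that exceeded it on 3 or more of the 6 arrays, at an adjusted p of 0.05. A single week has 1 array per diet, so its differences carry no test. The replicates of this test are weeks, and the labels do not say how many animals stand behind each.

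At week 10 the control array differed from the rest on the bacterial and phage transcripts that are spiked into every sample: all 18 of their probe sets had their highest signal there. Their median log2 signal was 9.89 on both arrays of week 2, 10.67 on the high-fat and 11.38 on the control array of week 4, and 10.82 on the high-fat and 12.70 on the control array of week 10. The part of this in the differences of week 10 was not tested. Without week 10, the mean difference was -1.02 for G6pc, -0.49 for Pck1, -0.42 for Fbp1, 0.52 for Pcx, 0.34 for Pklr, -0.23 for Pfkl, 0.27 for Gys2 and 0.04 for Pygl, each high-fat minus control in log2.

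Across the 8 genes, no member passed the test over the 3 weeks: 0 of the 11 member probe sets tested were called by limma, with adjusted p of 0.993 to 0.998, and 4 of the 11 had an unadjusted p under 0.05 before any adjustment. Those 4 are not separate genes: they were 1417880_at of G6pc, 1423439_at of Pck1, and both 1438711_at and 1421259_at of Pklr. The last lay above the floor on only 3 of the 6 arrays. Over all 14533 probe sets the same test called 2 higher on the high-fat diet (0.0138%), 1 for the keratin gene Krt23 and 1 for the clock output factor gene Dbp, and 0 lower (0%). Of all probe sets, 586 had an unadjusted p under 0.05, where 726.7 would be expected by chance. On data simulated for this comparison, the test recovered 2.99% of 67 probe sets changed by 1 on the log2 scale, 55.2% of 67 changed by 2 and 92.4% of 66 changed by 4. Changes of 1 were thus mostly missed in the simulation. Its noise was independent between values and its changed probe sets were picked at random, so the rates are not specific to these enzymes. The values below therefore describe these arrays.

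**Figure D1:**
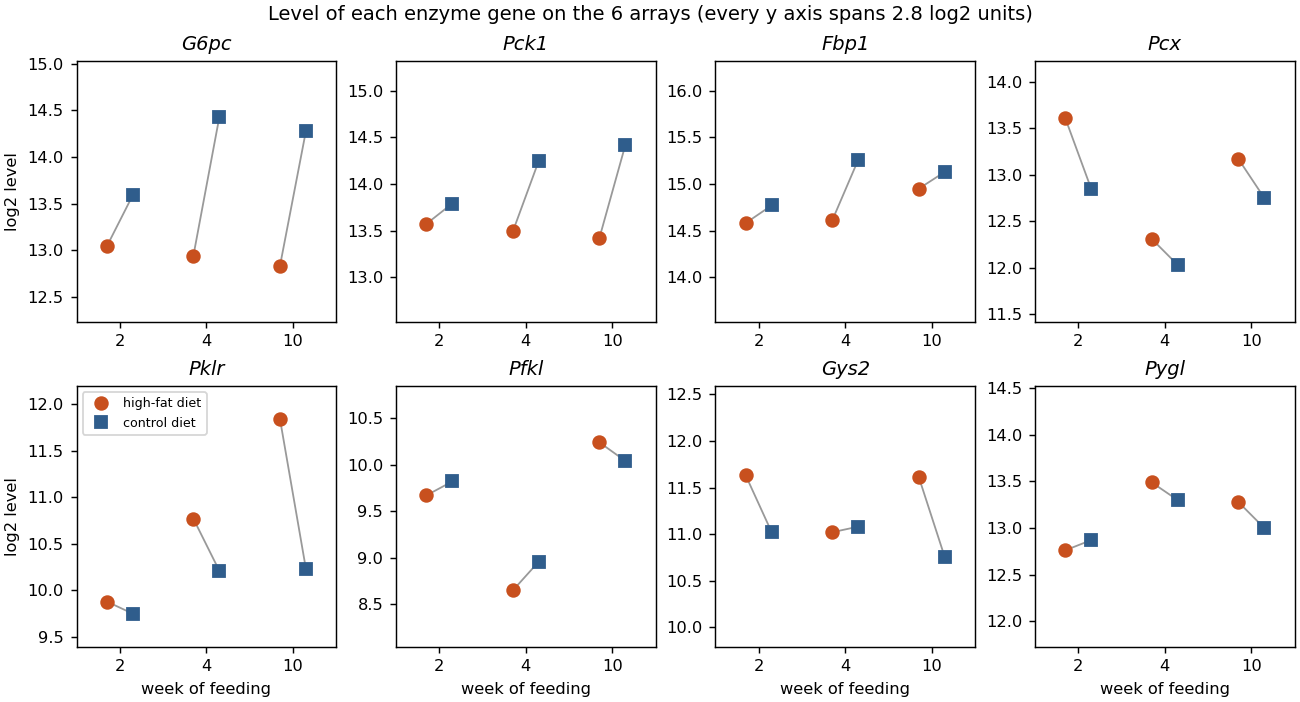
Log2 level (vertical axis) of the brightest probe set of each of the 8 enzyme genes on the 6 arrays, by week of feeding, with the high-fat array as a circle left of the control array as a square and a line joining the pair of 1 week. G6pc and Pck1 sit lower on the high-fat array at all 3 weeks, and Pklr lies 1.61 higher on the high-fat array at week 10.

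The genes of the last and the committed steps of gluconeogenesis, G6pc and Pck1, were lower on the high-fat array at every week, with wider gaps at weeks 4 and 10 than at week 2. Fbp1 was also lower at every week, by less, while Pcx was higher at every week on its gene probe set. None of these differences passed the test.

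G6pc, which encodes the enzyme that frees glucose for release, was read by the probe set 1417880_at. At week 2 its log2 level was 13.04 on the high-fat array and 13.59 on the control array, a difference of -0.55 (high-fat minus control), or 1.46-fold lower. At week 4 the levels were 12.94 on the high-fat array and 14.43 on the control array, a difference of -1.49 (2.81-fold lower). At week 10 they were 12.83 on the high-fat array and 14.28 on the control array, a difference of -1.45 (2.74-fold lower). The 3 high-fat values lay within 0.22 of each other and below all 3 control values, which spanned a wider range. The mean level was 12.94 ± 0.11 on the high-fat arrays and 14.10 ± 0.45 on the control arrays (SD, n = 3 each, over both designs). The mean difference was -1.16 with a standard error of 0.254, or 2.24-fold lower, with an unadjusted p of 0.00116 and a limma adjusted p of 0.993. With 1 probe set per gene, G6pc was the 10th of 8846 genes by unadjusted p (limma adjusted p = 0.744).

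Few other genes were as low as G6pc at the later weeks. Counting G6pc itself, 918 of 8846 genes (10.4%) were at least as low on the high-fat array at week 2, 19 (0.215%) at week 4 and 102 (1.15%) at week 10. On the mean over the 3 weeks 6 genes were at least as low (0.0678%). These shares describe where the gene lay among all genes on these arrays and are no test.

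Pck1, the carboxykinase that makes phosphoenolpyruvate from oxaloacetate, was read by 1423439_at. Its log2 level at week 2 was 13.57 on the high-fat array and 13.79 on the control array, a difference of -0.22. At week 4 it was 13.49 on the high-fat array and 14.25 on the control array, a difference of -0.77 (1.70-fold lower). At week 10 it was 13.42 on the high-fat array and 14.42 on the control array, a difference of -1.01 (2.01-fold lower). As for G6pc, after centring all 3 high-fat values lay below all 3 control values, and the high-fat values were the more even set: 13.49 ± 0.08 on high-fat and 14.15 ± 0.33 on control arrays (SD, n = 3 each, over both designs). The mean difference was -0.66 with a standard error of 0.237, or 1.58-fold lower (unadjusted p = 0.0197, limma adjusted p = 0.993), and 93 of 8846 genes (1.05%) were at least as low.

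The gene has further probe sets. On the larger design alone, 1439617_s_at gave 12.83 on the high-fat array and 13.88 on the control array of week 4, a difference of -1.05 (2.07-fold lower), so both bright Pck1 probe sets of that week were lower on high-fat. The remaining 1, 1455209_at, lay under the floor on all 6 arrays and gave no difference. Under quantile normalization the mean difference of 1423439_at was -0.41.

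Groups that do not overlap were not common among all genes. In 172 of 8846 genes (1.94%) all 3 high-fat values lay below all 3 control values, and in 135 (1.53%) all 3 lay above. Of the 8 enzyme genes, G6pc and Pck1 were of the lower kind and none of the higher. This count sets levels of the 2 designs side by side, after centring. As deposited, the groups of Pck1 overlapped: the high-fat signal of week 4 was 17168.1, above the control signals of 16706.2 at week 2 and 15999.6 at week 10.

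The level of Fbp1, the fructose bisphosphatase of gluconeogenesis, on 1448470_at was 14.58 on the high-fat array and 14.77 on the control array at week 2. At week 4 it was 14.61 on the high-fat array and 15.26 on the control array, and at week 10 14.95 on the high-fat array and 15.13 on the control array. The log2 differences were -0.19, -0.65 and -0.17 at weeks 2, 4 and 10, so the gap passed 1.5-fold (1.57-fold lower) at week 4 only. The mean difference was -0.34 with a standard error of 0.223 (unadjusted p = 0.159, limma adjusted p = 0.993), and the levels of the diets overlapped. The direction was not stable to scaling: with quantile normalization the mean difference was 0.07, and with a correction for the trend of the difference with brightness it was -0.03.

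Pcx, which carboxylates pyruvate to oxaloacetate in mitochondria, went the other way on its gene probe set 1416383_a_at. The log2 level at week 2 was 13.61 on the high-fat array and 12.85 on the control array, a difference of 0.77 (1.70-fold higher). At week 4 it was 12.31 on the high-fat array and 12.03 on the control array, a difference of 0.28. At week 10 it was 13.17 on the high-fat array and 12.75 on the control array, a difference of 0.42. The high-fat array was thus higher within each week, but the level moved more between weeks than between diets, and the high-fat value of week 4 lay below the control values of weeks 2 and 10, which are of the other design. The mean difference was 0.49 with a standard error of 0.221, or 1.40-fold (unadjusted p = 0.0529, limma adjusted p = 0.993). With the values as deposited it was 0.30.

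The 4 control probe sets read pyruvate carboxylase RNA at set distances from its 3' end, where the labelling reaction starts. At the 3' end the difference was 0.64, -0.05 and 0.01 at weeks 2, 4 and 10, and at the 5' end it was -0.69, -0.92 and 0.76. The middle probe set nearer the 3' end gave 0.54, -0.26 and 0.53, and the one nearer the 5' end 0.28, -0.64 and 0.82. So at week 4 all 4 control probe sets were lower on the high-fat array while the gene probe set was higher, at week 10 all 5 were higher, that of the 3' end by 0.01, and at week 2 the sign turned from the 3' to the 5' end. The means over the weeks were 0.20 at the 3' end, 0.27 and 0.15 in the middle and -0.28 at the 5' end, against 0.49 on the gene probe set.

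The same probe sets give a sign of RNA quality. The ratio of 3' to 5' signal of pyruvate carboxylase was 9.64 on the high-fat and 3.82 on the control array at week 2, 7.78 on the high-fat and 4.26 on the control array at week 4, and 2.39 on the high-fat and 4.01 on the control array at week 10. A higher ratio means that less of the labelled RNA reached the 5' end. The ratio of beta-actin was 1.61 on the high-fat and 1.20 on the control array at week 2, 2.35 on the high-fat and 2.15 on the control array at week 4, and 1.17 on the high-fat and 1.73 on the control array at week 10, the same order within each week. That of Gapdh was 1.01 on the high-fat and 0.783 on the control array at week 2, 0.814 on the high-fat and 0.82 on the control array at week 4, and 0.832 on the high-fat and 0.906 on the control array at week 10, so at week 4 it was close to even. Their part in the differences of Pcx, or of the other enzymes, was not tested.

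**Figure D2:**
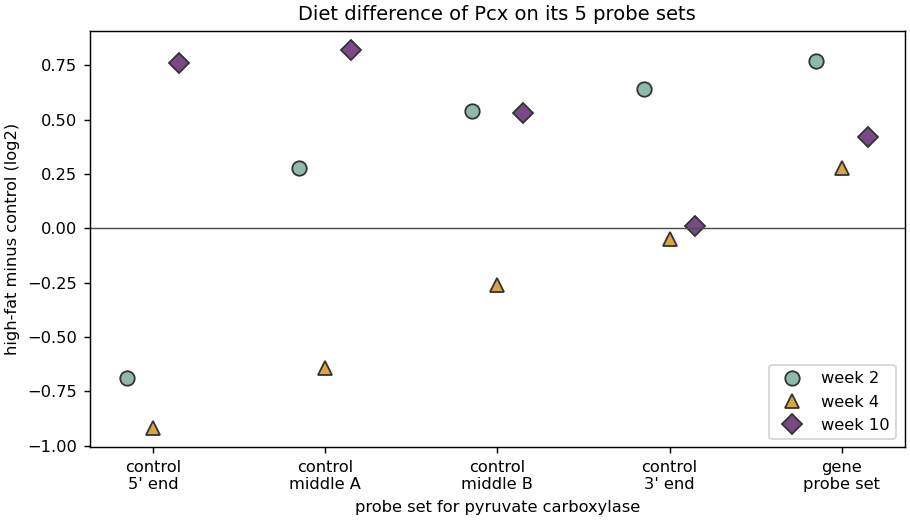
High-fat minus control difference in log2 signal (vertical axis) of the 5 shared probe sets for pyruvate carboxylase, from the 5' end to the gene probe set along the horizontal axis, with 1 symbol per week. The gene probe set is above 0 at all 3 weeks, whereas the 5' control probe set is at -0.69 and -0.92 at weeks 2 and 4 and at 0.76 at week 10.

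Among the glycolytic genes, Pklr at week 10 was higher with high-fat feeding on all 3 of its probe sets, and the gap was narrower at week 4 and mixed in sign at week 2. Pfkl had small differences of both signs. Neither passed the test.

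Pklr encodes the pyruvate kinase of liver, which makes pyruvate at the end of glycolysis. On its brightest probe set, 1438711_at, the log2 level at week 2 was 9.88 on the high-fat array and 9.75 on the control array, a difference of 0.13. At week 4 it was 10.77 on the high-fat array and 10.21 on the control array, a difference of 0.55 (1.47-fold higher). At week 10 it was 11.84 on the high-fat array and 10.23 on the control array, a difference of 1.61 (3.06-fold higher). The control values were close together at weeks 4 and 10 (different designs), and the high-fat array of week 10 was the highest of the 6. Counting Pklr itself, 54 of 8846 genes (0.61%) were at least as high on the high-fat array at week 10, against 2898 (32.8%) at week 2.

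The mean difference of 1438711_at was 0.77 with a standard error of 0.292, or 1.70-fold (unadjusted p = 0.0266, limma adjusted p = 0.993). The mean level was 10.83 ± 0.98 on the high-fat arrays and 10.06 ± 0.27 on the control arrays (SD, n = 3 each, over both designs), so the wide spread was on the high-fat side. For G6pc and Pck1 the wider spread was on the control side.

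The other Pklr probe sets had the same sign at weeks 4 and 10 and parted at week 2. On 1421258_a_at the level was 9.39 on the high-fat array and 10.20 on the control array at week 2, 10.42 on the high-fat array and 9.95 on the control array at week 4, and 11.54 on the high-fat array and 10.29 on the control array at week 10. Its differences were -0.81, 0.46 and 1.25, with a mean of 0.30 and a standard error of 0.347 (unadjusted p = 0.41, limma adjusted p = 0.993). The dimmest, 1421259_at, lay under the floor on both arrays of week 2. It had 9.06 on the high-fat array and 8.57 on the control array at week 4, a difference of 0.49. At week 10 it had 10.89 on the high-fat array and lay under the floor on the control array, a difference of at least 3.62 (at least 12.3-fold). Its fitted mean of 1.37, with 3 of the 6 values set to the floor, depends on that floor (unadjusted p = 0.0363, limma adjusted p = 0.993).

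Pfkl, the liver phosphofructokinase that commits sugar to glycolysis, had levels on 1450269_a_at of 9.67 on the high-fat array and 9.82 on the control array at week 2. They were 8.65 on the high-fat array and 8.96 on the control array at week 4, and 10.24 on the high-fat array and 10.04 on the control array at week 10. The differences were -0.16, -0.31 and 0.20, with a mean of -0.09 and a standard error of 0.222 (unadjusted p = 0.695, limma adjusted p = 0.998). The second probe set, 1439148_a_at, had levels of 9.37 on the high-fat array and 9.01 on the control array at week 2, 9.27 on the high-fat array and 9.42 on the control array at week 4, and 9.73 on the high-fat array and 8.77 on the control array at week 10. Its differences were 0.36, -0.15 and 0.96, so the probe sets had opposite signs at week 2 and differed in size at week 10. Its mean difference was 0.39 with a standard error of 0.257 (unadjusted p = 0.16, limma adjusted p = 0.993), and the mean of both probe sets turned the sign of the gene to 0.15. Another, 1453541_at, on the larger design alone, lay under the floor on both arrays of week 4.

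**Figure D3:**
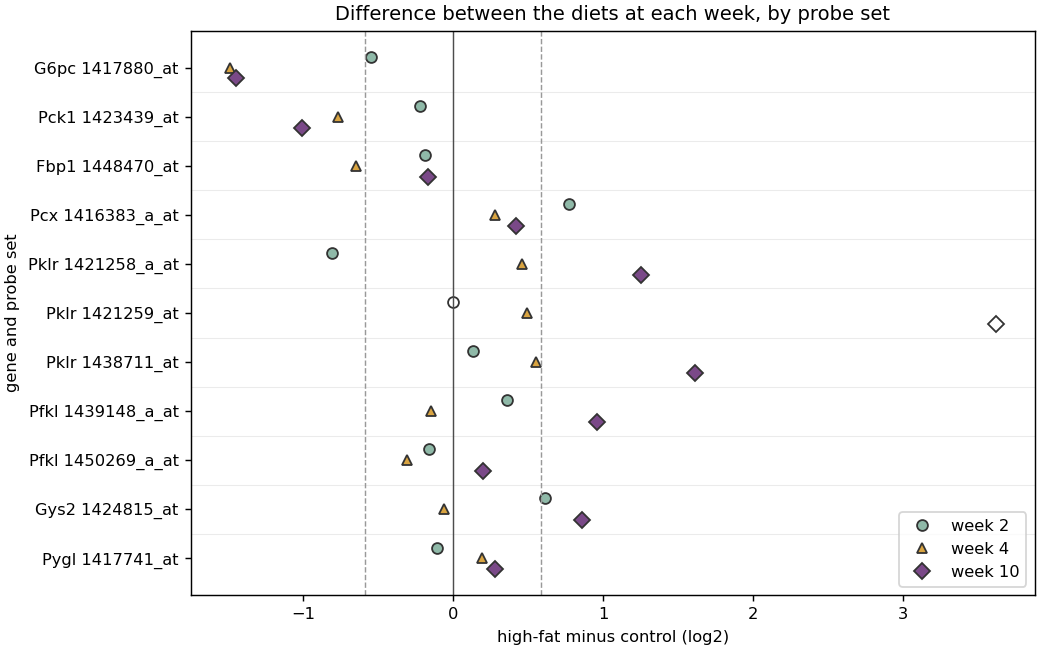
High-fat minus control difference in log2 level (horizontal axis) of the 11 tested probe sets of the enzyme genes, with 1 symbol per week, open where an array lay at the floor and dashed lines at 1.5-fold. The 3 symbols of G6pc, Pck1 and Fbp1 lie left of 0, those of Pcx right of 0, and the 3 probe sets of Pklr spread to the right at week 10.

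Both glycogen genes had 1 probe set. Gys2, the glycogen synthase of liver, was higher on high-fat at weeks 2 and 10 and close to even at week 4, and Pygl, the liver phosphorylase that releases glucose units from glycogen, differed by less than 1.5-fold at every week.

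On 1424815_at, Gys2 had a log2 level of 11.63 on the high-fat array and 11.02 on the control array at week 2, a difference of 0.61 (1.52-fold higher). At week 4 it had 11.02 on the high-fat array and 11.08 on the control array, a difference of -0.06. At week 10 it had 11.61 on the high-fat array and 10.75 on the control array, a difference of 0.86 (1.82-fold higher). The mean level was 11.42 ± 0.35 on the high-fat arrays and 10.95 ± 0.17 on the control arrays (SD, n = 3 each, over both designs), and the groups overlapped through the high-fat array of week 4. The mean difference was 0.47 with a standard error of 0.245 (unadjusted p = 0.0861, limma adjusted p = 0.993). It was 0.73 without week 4 and 0.28 with the values as deposited.

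On 1417741_at, Pygl had 12.76 on the high-fat array and 12.87 on the control array at week 2, 13.49 on the high-fat array and 13.30 on the control array at week 4, and 13.28 on the high-fat array and 13.00 on the control array at week 10. The differences were -0.11, 0.19 and 0.28 and the levels of the diets overlapped. The mean difference was 0.12 with a standard error of 0.218 (unadjusted p = 0.583, limma adjusted p = 0.996). It was -0.06 with the values as deposited, and 0.29 with the brightness correction.

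Weeks 2 and 10 share an array design, so each diet can also be followed in time, with 1 array per point and no test. G6pc was 0.22 lower on the log2 scale at week 10 than at week 2 on high-fat (week 10 minus week 2, -0.22) and 0.69 higher on control. Pck1 had -0.16 on high-fat and 0.63 on control, so for both genes the control arrays moved apart more than the high-fat ones. Pklr had the reverse pattern, with 1.96 on high-fat and 0.48 on control for 1438711_at, and 2.15 on high-fat and 0.09 on control for 1421258_a_at. Fbp1 had 0.37 on high-fat and 0.35 on control, Gys2 -0.01 on high-fat and -0.27 on control, and Pygl 0.52 on high-fat and 0.13 on control. Pcx had -0.44 on high-fat and -0.10 on control for its gene probe set. From the 3' to the 5' end, its control probe sets had -0.88, -0.10, 0.26 and 1.13 on the high-fat diet. On the control diet they had -0.25, -0.10, -0.28 and -0.32. Pfkl had 0.57 on high-fat and 0.22 on control for its brighter probe set, and 0.36 on high-fat and -0.24 on control for 1439148_a_at. These values use the same arrays as the differences between diets and are not independent of them.

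Taking the 8 genes by week, 2 were at least 1.5-fold higher on the high-fat array at week 2 (Pcx and Gys2) and 0 were as much lower, where 6.83% and 8.79% of all 8846 genes were. At week 4, 0 were higher and 3 lower (G6pc, Pck1 and Fbp1), where 3.87% and 6.66% of all genes were. At week 10, 2 were higher (Pklr and Gys2) and 2 lower (G6pc and Pck1), where 13.5% and 12.7% of all genes were. The median log2 difference of the 8 genes was -0.13, -0.19 and 0.24 at weeks 2, 4 and 10, and that of all genes was -0.03, 0.00 and 0.02. Of the 8, 3 genes were lower at all 3 weeks, against 11.3% of all genes, and 2 were higher at all 3 weeks (Pcx and Pklr), against 8.16% of all genes. With the values as deposited the median of all genes at week 2 was -0.68, because the control array of week 2 was scaled to a higher mean than the others, and there the difference of G6pc at week 2 was -1.22 and that of Pklr -0.54.

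At week 4 bright genes as a class were lower with high-fat feeding, and 5 of the 8 enzymes (G6pc, Pck1, Fbp1, Pcx and Pygl) were among the 884 brightest genes. The median difference of these 884 was -0.02, -0.32 and -0.08 at weeks 2, 4 and 10. At week 4, 20.4% of them were at least 1.5-fold lower and 1.02% higher. At week 10, 13.0% were as much lower and 5.09% higher, beside 12.7% and 13.5% of all genes. Among them, 36, 4 and 12 genes were at least as low as G6pc at weeks 2, 4 and 10, and 211, 77 and 27 at least as low as Pck1. For Fbp1 the numbers were 232, 137 and 372. After the brightness correction the differences of G6pc were -0.52, -1.08 and -1.31, those of Pck1 -0.18, -0.32 and -0.84, and those of Fbp1 -0.12, -0.04 and 0.06.

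Genes that mark hepatocytes, the main cell of the liver and the one in which these enzymes act, were lower on the high-fat arrays. So were G6pc, Pck1 and Fbp1. On their brightest probe sets Pcx and Pklr were higher at every week, and Pfkl, Gys2 and Pygl had differences of both signs. Of 8 hepatocyte markers listed, 5 were named by a shared probe set and lay above the floor on all 6 arrays, as the tissue label has it. At weeks 4 and 10 all 5 were lower with high-fat feeding, and at week 2 4 of 5 were, with median log2 differences of -0.18, -0.84 and -0.48. For Alb, the gene of serum albumin, the differences were -0.25, -1.03 and -0.51. The summed signal of the 5 was 181000 on the high-fat and 208000 on the control array at week 2, 124000 on the high-fat and 228000 on the control array at week 4, and 271000 on the high-fat and 369000 on the control array at week 10. In whole liver, fewer cells of a type and less RNA per cell cannot be told apart. Bright genes as a class were also lower at week 4, with a median of -0.32 for the 884 brightest. The part of brightness in the marker differences was not tested.

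Of 8 markers of Kupffer cells, the resident macrophages of liver, 8 were named and above the floor on at least 1 array, and at week 10 all 8 were higher on the high-fat array. Their summed signal was 14600 on the high-fat and 15900 on the control array at week 2, 22500 on the high-fat and 20400 on the control array at week 4, and 18300 on the high-fat and 10500 on the control array at week 10. For 6 endothelial markers the sums were 3370 on the high-fat and 4370 on the control array at week 2, 3480 on the high-fat and 3450 on the control array at week 4, and 4620 on the high-fat and 2730 on the control array at week 10. For 6 markers of stellate cells, which store vitamin A, the high-fat sum was the higher 1 in every week: 3860 on the high-fat and 3220 on the control array at week 2, 6460 on the high-fat and 5000 on the control array at week 4, and 4030 on the high-fat and 3290 on the control array at week 10. The median log2 difference of the stellate markers was 0.10, 0.30 and 0.10 at weeks 2, 4 and 10. Of the 6 markers, 2 of the stellate and 4 of the endothelial list exceeded the floor on all 6 arrays. With all 6 at the floor the sum of either list would be 932. The part of cell makeup in the differences of the enzymes was not tested. Markers of other cell types were summed in the same way. Kidney also makes glucose through G6pc and Pck1. Of its 5 markers, 4 exceeded the floor on at least 1 array, the defining Umod on none, and their sum was 776 to 1480 on high-fat and 776 to 1370 on control arrays, where 776 is the sum with all 5 at the floor. Of 4 acinar markers, 3 exceeded the floor on some array and Cpa1 on none, with a sum of 1350 to 2010 on high-fat and 1620 to 1780 on control arrays against 621 at the floor. Of 3 adipocyte markers, 1 exceeded the floor on all 6 arrays and Adipoq and Lep on none, with 611 to 1020 on high-fat and 566 to 769 on control arrays against 466 at the floor. Of 3 erythroid markers, all exceeded it on some array, with 628 to 1120 on high-fat and 519 to 931 on control arrays against 466. The bile duct, muscle and intestinal lists stayed nearer their floors. For bile duct 2 of 4 exceeded it on some array (Krt7 and Epcam on none), with 621 to 676 on high-fat and 621 to 779 on control arrays against 621. For muscle 3 of 5 did (Myh4 and Actn3 on none), with 776 to 857 on high-fat and 776 to 968 on control arrays against 776. For intestine 1 of 4 did (Vil1, Cdx1 and Lct on none), with 621 to 658 on high-fat arrays and 621 on every control array, the sum at the floor.

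The wider pathway was read from 5 lists of 95 genes, of which 78 were named by a shared probe set and 69 were tested. None of the 69 was called by limma, where 0.0138% of all probe sets were called higher and 0% lower, and 7 of the 69 had an unadjusted p under 0.05, where 586 of all 14533 probe sets had. Of the 69, 8 were lower on the high-fat array at all 3 weeks and 14 were higher, beside 11.3% and 8.16% of all genes. Counts of at least 1.5-fold below stand beside 6.83% of all genes higher and 8.79% lower at week 2, 3.87% higher and 6.66% lower at week 4, and 13.5% higher and 12.7% lower at week 10.

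In the list of gluconeogenesis and glucose release, 10 of 14 genes were tested, and the median difference was 0.02, -0.57 and -0.03 at weeks 2, 4 and 10, beside -0.03, 0.00 and 0.02 for all genes. At week 4, 5 of the 10 were at least 1.5-fold lower and 0 higher. Of the 10, 8 were among the 884 brightest genes, whose median at week 4 was -0.32, with 20.4% at least 1.5-fold lower, and 4 of the 5 lower ones were among these 8. At week 2 the counts were 1 lower and 0 higher, and at week 10 1 lower and 2 higher. The largest mean differences were those of Tat, Got1 and Mdh1. Tat, the tyrosine aminotransferase that opens tyrosine breakdown, had differences of -0.59, -0.94 and -0.58, close to those of the hepatocyte markers at weeks 4 and 10 (unadjusted p = 0.00992, limma adjusted p = 0.993). Got1, the cytosolic aspartate aminotransferase, had 0.27, -1.11 and -0.91. Mdh1, the cytosolic malate dehydrogenase, had -0.45, -0.82 and 0.27 on its brightest probe set, while 2 others gave -0.77, -0.34 and -1.48, and 0.22, 0.33 and -0.70.

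In the list of glycolysis and fructose entry, 14 of 24 genes were tested, with medians of 0.06, 0.02 and 0.02. At least 1.5-fold higher were 1, 1 and 3 genes at weeks 2, 4 and 10, and lower 0, 1 and 4. Gckr, which encodes the inhibitor protein of glucokinase, had 0.27, 0.07 and 1.01. Aldoc, an aldolase, had -0.46, -1.10 and 0.05. Pkm, the pyruvate kinase of other tissues, had 0.49, 0.31 and 0.38, its control value at the floor at week 2, so the sign it shares with Pklr came with a smaller difference at week 10.

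In the glycogen list, 15 of 21 genes were tested, with medians of 0.06, -0.09 and 0.10. At least 1.5-fold higher were 1, 2 and 3 genes at weeks 2, 4 and 10, and lower 1, 1 and 3. Phkb, a subunit of the kinase that activates phosphorylase, had 0.86, 0.68 and 0.10 (unadjusted p = 0.0438, limma adjusted p = 0.993). Pygb, the brain phosphorylase, had -0.25, -0.09 and -1.21 where Pygl had -0.11, 0.19 and 0.28. Pgm2, a phosphopentomutase of the phosphoglucomutase family, had -0.95, -0.87 and 0.68, with the control value of week 10 at the floor.

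In the list of pyruvate fate, 8 of 12 genes were tested, with medians of 0.04, 0.13 and 0.30. At least 1.5-fold higher were 1, 0 and 0 genes at weeks 2, 4 and 10, and lower 1, 0 and 1. Pdk4, a kinase that inactivates pyruvate dehydrogenase and is known to be raised by fasting, had log2 levels of 9.41 on the high-fat and 10.42 on the control array at week 2, 9.02 on the high-fat and 8.93 on the control array at week 4, and 8.76 on the high-fat and 10.70 on the control array at week 10. Its differences were -1.01, 0.09 and -1.94, with a mean of -0.96 (unadjusted p = 0.0199, limma adjusted p = 0.993). Pdk1, another of these kinases, had 0.41, 0.25 and 0.38 on its brightest probe set and -0.17, -0.08 and 0.20 on the other. Pdha1, a subunit of pyruvate dehydrogenase, had 0.20, 0.16 and 0.57 on its brightest and -0.33, -0.30 and 0.64 on the other.

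Among the regulators of glucose production, 22 of 24 genes were tested, with medians of 0.20, 0.00 and -0.04. At least 1.5-fold higher were 4, 2 and 4 genes at weeks 2, 4 and 10, and lower 1, 2 and 5. Mlxipl, the carbohydrate-responsive factor named above for Pklr, had log2 levels of 11.16 on the high-fat and 10.92 on the control array at week 2, 11.67 on the high-fat and 10.78 on the control array at week 4, and 12.01 on the high-fat and 10.78 on the control array at week 10. Its differences were 0.23, 0.89 and 1.23, with a mean of 0.79 (unadjusted p = 0.0111, limma adjusted p = 0.993), beside 0.13, 0.55 and 1.61 for Pklr. Nr1d1 and Nr1d2 encode the clock repressors Rev-erb alpha and beta, and Rev-erb alpha is known to repress G6pc and Pck1. Nr1d1 had levels of 10.45 on the high-fat and 8.76 on the control array at week 2, 8.20 on both arrays at week 4, and 10.30 on the high-fat and 8.03 on the control array at week 10. Its differences were 1.69, 0.00 and 2.27, with a mean of 1.32 (unadjusted p = 0.00624, limma adjusted p = 0.993). Nr1d2 had 1.14, 0.16 and 1.18 on its brightest probe set and -0.99, -0.35 and 1.03 on a dimmer one. Time of day differences between the arrays were not tested.

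**Figure D4:**
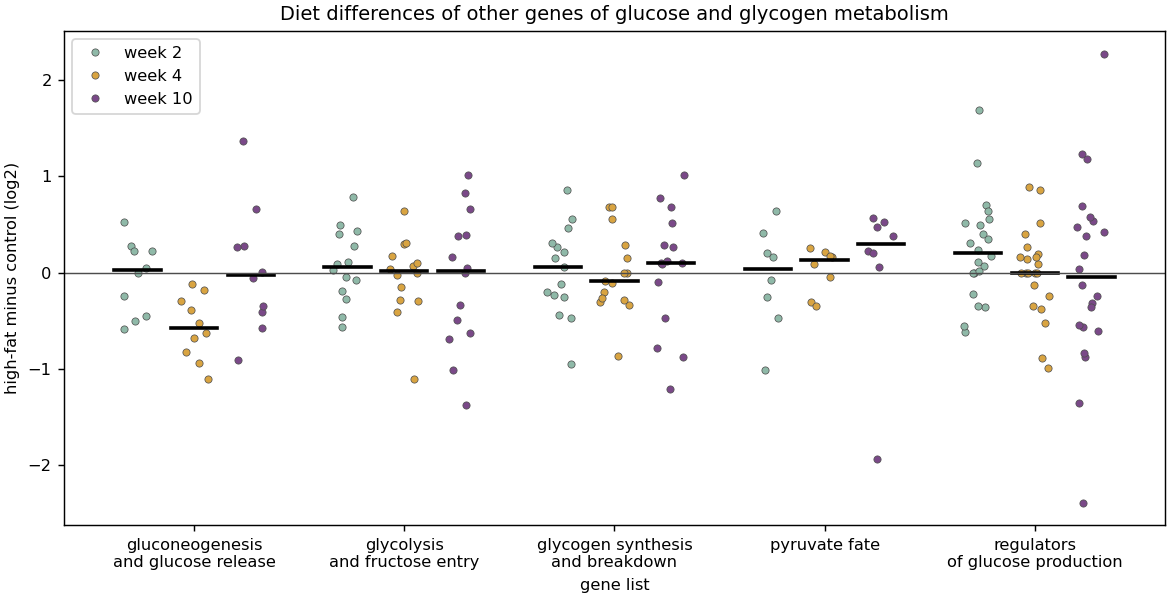
High-fat minus control difference in log2 level (vertical axis) of the 69 tested genes of 5 lists of glucose and glycogen metabolism that leave out the 8 enzymes, with 1 point per gene, week by colour and a bar at the median. The medians lie between -0.09 and 0.30, except that of gluconeogenesis and glucose release at week 4, at -0.57.

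The genes whose 3 weekly differences were nearest to those of an enzyme were sought for G6pc, Pck1 and Pklr, the members with a difference of at least 1 on the log2 scale in some week. Nearness was the Euclidean distance over the 3 weeks, among the 6050 genes above the floor on all 6 arrays. Nearest to G6pc were Cth, a lyase of cysteine synthesis, at a distance of 0.431 (differences of -0.29, -1.22 and -1.24), Cyp39a1, an oxysterol hydroxylase, at 0.569, and Cyp8b1, the hydroxylase that makes cholic acid, at 0.63. Nearest to Pck1 were Errfi1, an inhibitor of growth factor receptor signalling, at 0.15, Wtap, of the RNA methylation complex, at 0.17, and Arg1, the arginase of the urea cycle, at 0.181 (differences of -0.35, -0.86 and -1.08). Nearest to Pklr were Rnf19b, a ubiquitin ligase, at 0.206, Col6a2, a collagen chain, at 0.229, and Fasn, fatty acid synthase, at 0.329 (differences of -0.16, 0.40 and 1.58). With 3 weeks, many genes lie close to any pattern, and the distances are a description.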

How the data were processed

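Biotin-labelled liver RNA was measured on 6 Affymetrix arrays. Each deposited value is the signal intensity of 1 probe set on a linear scale. The program the authors used to summarize probes is not named in the labels or files. Scaling, read off the deposited intensities as a mean trimmed by 2% at either end, was 500.0 to 500.2 on 5 arrays and 800.3 on the control array of week 2.

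The deposited intensities were taken to log2 and centred on the median of 9922 shared probe sets, those above the pooled 40th percentile on all 6 arrays after a first centring. Of 22626 shared probe sets (64 controls set aside), 20380 carried 1 symbol. Per array, 50.4% to 65.8% exceeded the floor. The number of arrays limits the precision. Diets were compared by lmFit and eBayes of limma 3.58.1 (R 4.3.3) with a block for week and p-values adjusted by Benjamini-Hochberg (threshold 0.05), a procedure tested on simulated data. The brightest probe set stood for a gene in counts by week, list summaries and likeness. The members, lists and tests were chosen with earlier results of these data known. Named were all members, per list up to 3 genes with the largest mean difference among those above the floor on both arrays of 2 or more weeks, and the 3 nearest genes of members with a weekly difference of 1 or more. List genes with no shared single-symbol probe set were not analysed here. Alternatives were other scalings, floors, filters, units of the fit, spread estimates, no week block and leaving out each week. Figures were drawn with matplotlib 3.10.9.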

Additional observations from a re-analysis of the deposited data

Results flagged for a closer look

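In all, 3 probe sets of the enzyme genes differed 1.5-fold or more with one sign at 1 week and the other sign at another. The control probe set at the 5' end of pyruvate carboxylase had log2 differences (high-fat minus control) of -0.69 at week 2, -0.92 at week 4 and 0.76 at week 10. The middle control probe set nearer that end had -0.64 at week 4 and 0.82 at week 10. The Pklr probe set 1421258_a_at had -0.81 at week 2 and 1.25 at week 10, while the brightest Pklr probe set had 0.13 and 1.61 at those weeks. Each value compares 1 high-fat with 1 control array, and the difference between weeks was not tested.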

How the results depend on the processing

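None of the 8 enzyme genes and none of the 69 other pathway genes was called by limma under any of the 14 alternatives. G6pc was lower on high-fat in 14 of 14 (mean log2 difference -1.47 to -0.95, limma adjusted p 0.113 to 1), Pck1 in 14 of 14 (-0.89 to -0.41), and Pklr (0.34 to 1.08) and Gys2 (0.27 to 0.73) were higher in 14 of 14. Pcx was higher in 13 of 13 (0.30 to 0.59). Many of these alternatives could not turn the sign. Other floors, no filter, other units of the fit or spread estimates and no week block left G6pc at -1.16 and Pck1 at -0.66. Where all 3 weeks had the same sign, leaving out a week could not turn it. The other scalings could have: G6pc had -1.35 with the values as deposited, -0.95 with quantile normalization and -0.97 with the brightness correction. Leaving out probe sets shared between transcripts left no value for Pcx and Pfkl. The sign turned for Pygl with the values as deposited (-0.06, against 0.12), for Fbp1 with quantile normalization (0.07, against -0.34) and for Pfkl with the mean of its probe sets (0.15, against -0.09), and the mean of Pfkl with 1 week left out at a time was -0.23 to 0.02, the highest without week 4. With the control probe sets in place of the gene probe set, the mean for Pcx was 0.20 at the 3' end, 0.15 at the middle probe set nearer the 5' end and -0.28 at the 5' end. The probe sets called over the whole array, 2 in the report, were 10 with the values as deposited, 1 with the brightest probe set per gene and 1 with a trended and robust spread. They were 0 with quantile normalization, the brightness correction, a floor at the 20th or the 60th percentile, no filter, shared probe sets left out or no week block, and 0 to 9 with 1 week left out (9 without week 2, 0 without week 4 and 6 without week 10). Enzyme genes at least 1.5-fold different at week 2 were 2 in the report, Pcx and Gys2, both higher on high-fat. With the values as deposited they were 5 others, all lower: G6pc, Pck1, Fbp1, Pfkl and Pygl (-1.22 to -0.77). The median of all genes there was -0.68, and Pcx had 0.10 and Gys2 -0.06. With the brightness correction 1 was left at week 2, Pcx, and 1 at week 4, G6pc, against 3 in the report. At week 4 quantile normalization gave 2, G6pc and Pygl (0.60). The values as deposited at week 2 carry the higher scaling of the control array, a trimmed mean of 800.3 against 500.2 on the high-fat array. In the other cases the cause was not tested. The block for week pairs the high-fat and control array of each week, so the test in the report is the paired one, and the fit without it is unpaired. By replicate number no paired analysis was possible because each diet and week has 1 array. A single array per diet and week, an unknown number of mice behind it and a control array of week 2 scaled apart limit every value given, and probes near the floor carry bounds only.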
